A study of Mus musculus with 45 samples.

Results

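The 36 genes described here make the proteins that license replication origins, copy DNA, supply nucleotides for it and carry a cell through mitosis. They were taken as a list by name: Cdc6, Cdt1 and Mcm2 to Mcm7 of origin licensing and the replicative helicase, Pcna, Rrm1, Rrm2, Tyms and Tk1 of the fork clamp and nucleotide supply, Ccne1, Ccna2, Ccnb1, Ccnb2, Cdk1 and E2f1 of cyclin control, and 17 genes of mitosis. The mitotic genes were Aurka, Aurkb, Birc5, Plk1, Bub1, Bub1b, Cdc20, Ube2c, Kif11, Kif20a, Tpx2, Nusap1, Prc1, Cenpe, Cenpf, Top2a and Mki67. All 36 had a value among the 23420 genes of the table, and all 36 were among the 10287 genes tested, so no member was lost to the filter on low counts. RNA-seq had been made from dendritic cells grown from C57BL/6 bone marrow with GM-CSF at 20 ng/ml, replated on day 9, treated for 8 h and sorted as live cells with high CD11c. Wild-type (WT) cells received medium, LPS, 4µ8C, 4PBA or Rapamycin, and cells of the genotype Bat3 fl/fl CD11c Cre (called KO here) received medium, LPS, 4µ8C or 4PBA. Each of the 9 groups held 5 libraries given as biological replicates, so that 45 libraries entered the work. LPS is the bacterial lipopolysaccharide sensed by Toll-like receptor 4, 4µ8C inhibits the RNase of the stress sensor IRE1, 4PBA (phenylbutyrate) acts as a chemical chaperone and inhibits histone deacetylases, and rapamycin inhibits mTOR complex 1. Cre is driven by the CD11c promoter, so deletion of Bat3 (the gene Bag6) begins only once cells turn that promoter on, and the cells were sorted on the same protein. The labels name 1 treatment per group. They do not say whether LPS was present with 4µ8C, 4PBA or rapamycin, and they name no vehicle group or separate mice.

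A cell that commits to divide frees E2F transcription factors through cyclin D and cyclin E kinases. It then loads the Mcm helicase on origins with Cdc6 and Cdt1, copies its DNA behind the Pcna clamp, and later switches on a second wave of genes for the spindle, its checkpoint and the anaphase-promoting complex. In GM-CSF cultures of marrow, precursors divide while mature dendritic cells have largely left the cycle. The RNA of these genes in a bulk sample therefore follows both the share of cycling cells and the RNA per cell, and in these libraries fewer cells of a type and less RNA per cell cannot be told apart.

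The promoters of the members that the results turn on are shown because the 2 waves are known for different promoter elements. Each stretch is the last 120 bases before the start of the gene in RefSeq on GRCm38.p6, all 3 genes lie on the minus strand, and capitals mark matches to an E2F motif (TTTGGCGC, TTTCGCGC or TTTCCCGC), a CCAAT box (CCAAT) or a cell cycle homology region (CHR, TTTGAA), each searched on both strands. Ccne1 (cyclin E1) is at chr7:38107491-38107610, Mcm6 (a subunit of the helicase) at chr1:128359706-128359825 and Cdc20 (an activator of the anaphase-promoting complex) at chr4:118437344-118437463.
Ccne1: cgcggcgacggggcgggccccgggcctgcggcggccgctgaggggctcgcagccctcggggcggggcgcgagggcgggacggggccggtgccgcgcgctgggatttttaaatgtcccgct
Mcm6: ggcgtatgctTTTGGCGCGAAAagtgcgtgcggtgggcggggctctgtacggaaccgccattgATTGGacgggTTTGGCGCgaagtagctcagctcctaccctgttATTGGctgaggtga
Cdc20: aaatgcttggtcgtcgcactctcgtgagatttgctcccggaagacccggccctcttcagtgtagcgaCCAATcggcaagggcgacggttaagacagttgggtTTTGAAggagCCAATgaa
The Mcm6 window held 5 matches, of which 3 were E2F motifs (a pair overlap on opposite strands) and the others CCAAT boxes. Cdc20 held 1 CHR between a pair of CCAAT boxes and no E2F match, and these letters were not found in the Ccne1 window. Over the 300 bases from 250 before to 50 after the start, 31 of the 36 members had a promoter in the table. An E2F motif stood in 6 of the 12 replication and nucleotide genes with a promoter there (50%), in 0 of the 14 mitotic genes with one and in 2.1% of all 27025 genes with a promoter. A CHR stood in 1 of the 12 replication genes, in 10 of the 14 mitotic genes (71.4%) and in 20.2% of all. CCAAT boxes were found in 23 of the 31 members (74.2%) against 41.1% of all genes. The matches describe letters in a window and say nothing of binding in these cells.

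Between 1509200 and 4737700 expected counts were assigned to genes per library. The WT library 4 under 4µ8C was the shallowest. Its floor of 3 counts was worth 2.77 CPM (counts scaled to the total of the library with a factor for its composition), 6 members stood at 0 in it, and Mcm4 was at 0 there against 11.5 to 17.0 CPM in the other 4 libraries of its group. Bag6 averaged 12.7 to 15.1 CPM in the WT groups and 7.51 to 9.73 CPM in the KO groups. Dendritic cell markers summed to 4169 to 11820 CPM per library. Macrophage markers summed to 1024 to 3023 CPM, and lists for B cells, T or NK cells and erythroid cells each stayed at or below 2.44 CPM. The library codes divide the libraries into 17 outer and 28 inner positions if the codes are read as a plate, which the labels do not state. All WT medium and WT LPS libraries were outer, and all WT 4PBA, KO medium and KO 4PBA libraries were inner.

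Per length, the members were low to moderate in these cells. Pcna, the sliding clamp of the replication fork, had the highest level, with a mean of 68.1 TPM (RSEM's length-corrected unit) over the 45 libraries. Ccne1 followed at 18.6 TPM, E2f1, a transcription factor that drives S phase genes, at 18.4 TPM, and Tyms, which makes thymidylate, at 12.3 TPM. The other 32 members averaged 9.70 TPM (Ube2c, the ubiquitin-conjugating enzyme of the anaphase-promoting complex) or less. The lowest were the kinetochore proteins Cenpe at 0.502 TPM and Cenpf at 0.358 TPM, and Mki67, the proliferation marker Ki-67, stood at 1.59 TPM. The 4 highest are genes of S phase or of the entry to it, and Ube2c was the highest mitotic gene.

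Most members had lower fitted levels under the treatments than in medium, by small steps, and few of these differences passed the test. Ccne1 went the other way, with a rise in both genotypes under LPS, 4µ8C and 4PBA. A gene was called where the edgeR quasi-likelihood test gave a Benjamini-Hochberg adjusted p under 0.05 over all 10287 genes. In WT cells LPS called 5 of 36 members, 1 higher and 4 lower, where it called 40.1% of all tested genes (18.8% higher, 21.3% lower). In WT cells 4µ8C called 4 members, 1 higher and 3 lower, against 40.1% of all genes (20% and 20%). 4PBA called 9 members in WT cells, 1 higher and 8 lower, against 43.7% (22.4% and 21.3%). Rapamycin called 3 members, 1 higher and 2 lower, against 23.2% (9.68% and 13.5%). In KO cells LPS, 4µ8C and 4PBA each called 3 members, 1 higher and 2 lower. Of all genes LPS called 35.2% there (16.7% higher, 18.5% lower), 4µ8C 32.6% (16.1% and 16.5%) and 4PBA 33.2% (17% and 16.2%). The share of members called was below the share of all tested genes in each of the 7 comparisons. A call depends on read counts and spread as well as on the size of the change, and many members had few reads. The lower share therefore does not mean smaller changes, and the medians given below lay further from 0 for the members than for all genes. The part of counts and spread in the shares was not tested. Left-out libraries moved some of these counts: WT LPS gave 3 without WT medium replicate 2 or WT LPS replicate 5, WT 4µ8C gave 2 without WT medium replicate 2 or WT 4µ8C replicate 5, WT 4PBA gave 6 without WT medium replicate 3, and KO LPS gave 8 without KO LPS replicate 3 (1 higher and 7 lower).

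The median log2 fold change of the 36 members was -0.55 under LPS in WT cells, -0.50 under 4µ8C and -0.76 under 4PBA, beside -0.07, -0.05 and -0.01 over all tested genes. In KO cells the medians were -0.28, -0.52 and -0.59, beside -0.08, -0.07 and -0.02. Rapamycin gave -0.16 beside -0.02. These comparisons share the medium libraries of their genotype, so that a high medium library lowers all contrasts of that genotype together. In this fit, which has no block for the replicate number, 14 members were called in at least 1 of the 7 comparisons and 22 in none. Macrophage markers (9 with a value, none at 0 in a group) also summed lower in the treated groups, from 2472 CPM in WT medium to 1663 with LPS, 1772 with 4µ8C and 1623 with 4PBA on average. In KO cells they summed to 1866 CPM in medium and 1584, 1402 and 1192 CPM with the same treatments, while rapamycin stood at 2710 CPM. Their part in the results for the members was not tested.

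**Figure D1:**
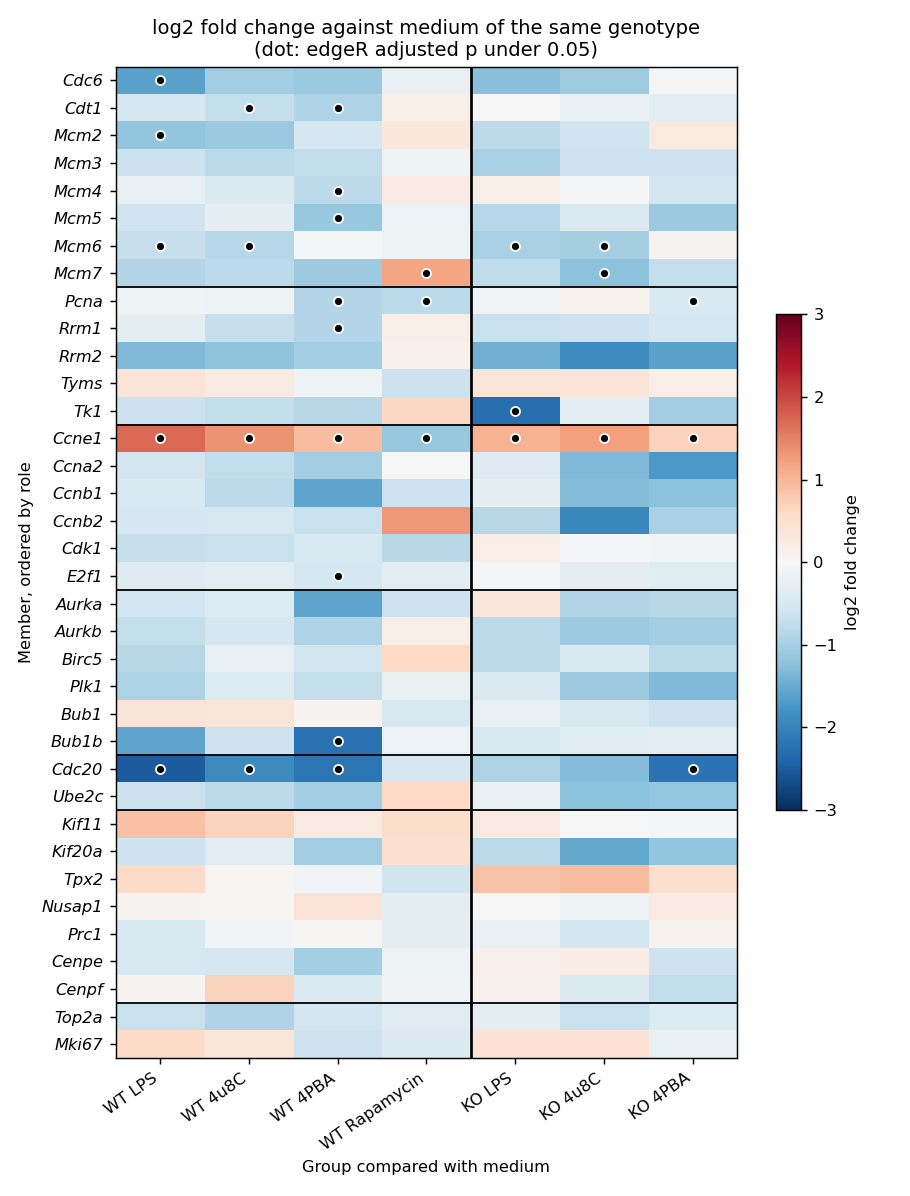
Fitted log2 fold change of each of the 36 members (rows, by role) in each treatment against the medium group of its genotype (columns), with the called values marked. Ccne1 is higher in the 6 columns other than rapamycin and lower under rapamycin, and the 8 licensing and helicase genes lie below 0 in WT cells under LPS, 4µ8C and 4PBA.

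Ccne1 encodes cyclin E1, which activates Cdk2 at the entry to S phase. In WT medium it stood at 16.4, 11.5, 13.3, 9.63 and 10.4 CPM in replicates 1 to 5. Under LPS the values were 40.3, 52.0, 41.5, 38.5 and 27.1 CPM. Every LPS library lay above every medium library, and the rise was 3.24-fold (log2 1.69, SE 0.21, edgeR adjusted p = 3.6e-09). With 4µ8C, Ccne1 reached 24.8, 35, 24.7, 49.9 and 27.2 CPM, and with 4PBA 29.3, 22.6, 25.8, 20.5 and 19.3 CPM. Both groups also lay wholly above medium, by log2 1.36 (SE 0.21, edgeR adjusted p = 9.7e-07) and by log2 0.93 (SE 0.21, edgeR adjusted p = 0.00032). Rapamycin gave 4.26, 4.06, 7.55, 8.21 and 3.45 CPM. All 5 were below the lowest medium library, a fall of 1.14 on the log2 scale (SE 0.24, edgeR adjusted p = 0.00028).

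In KO cells Ccne1 stood at 14.9, 15.1, 12.7, 19.9 and 13.3 CPM in medium. LPS raised it to 22.5, 27.1, 34.7, 44.5 and 28.0 CPM, 4µ8C to 28.3, 30.6, 42.4, 47.1 and 30.9 CPM, and 4PBA to 29.9, 22.5, 26.9, 22 and 21.9 CPM. None of the 15 treated libraries reached down to the highest medium library. The fitted log2 rises were 1.04 (SE 0.21, edgeR adjusted p = 6.8e-05), 1.23 (SE 0.20, edgeR adjusted p = 3.8e-06) and 0.69 (SE 0.21, edgeR adjusted p = 0.0080). The test of the difference between genotypes in the response to LPS gave a log2 value of -0.66 for Ccne1 (KO minus WT, SE 0.29, unadjusted p = 0.029, edgeR adjusted p = 0.62), which did not pass. Ccne1 was the only member called in all 7 comparisons with medium.

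**Figure D2:**
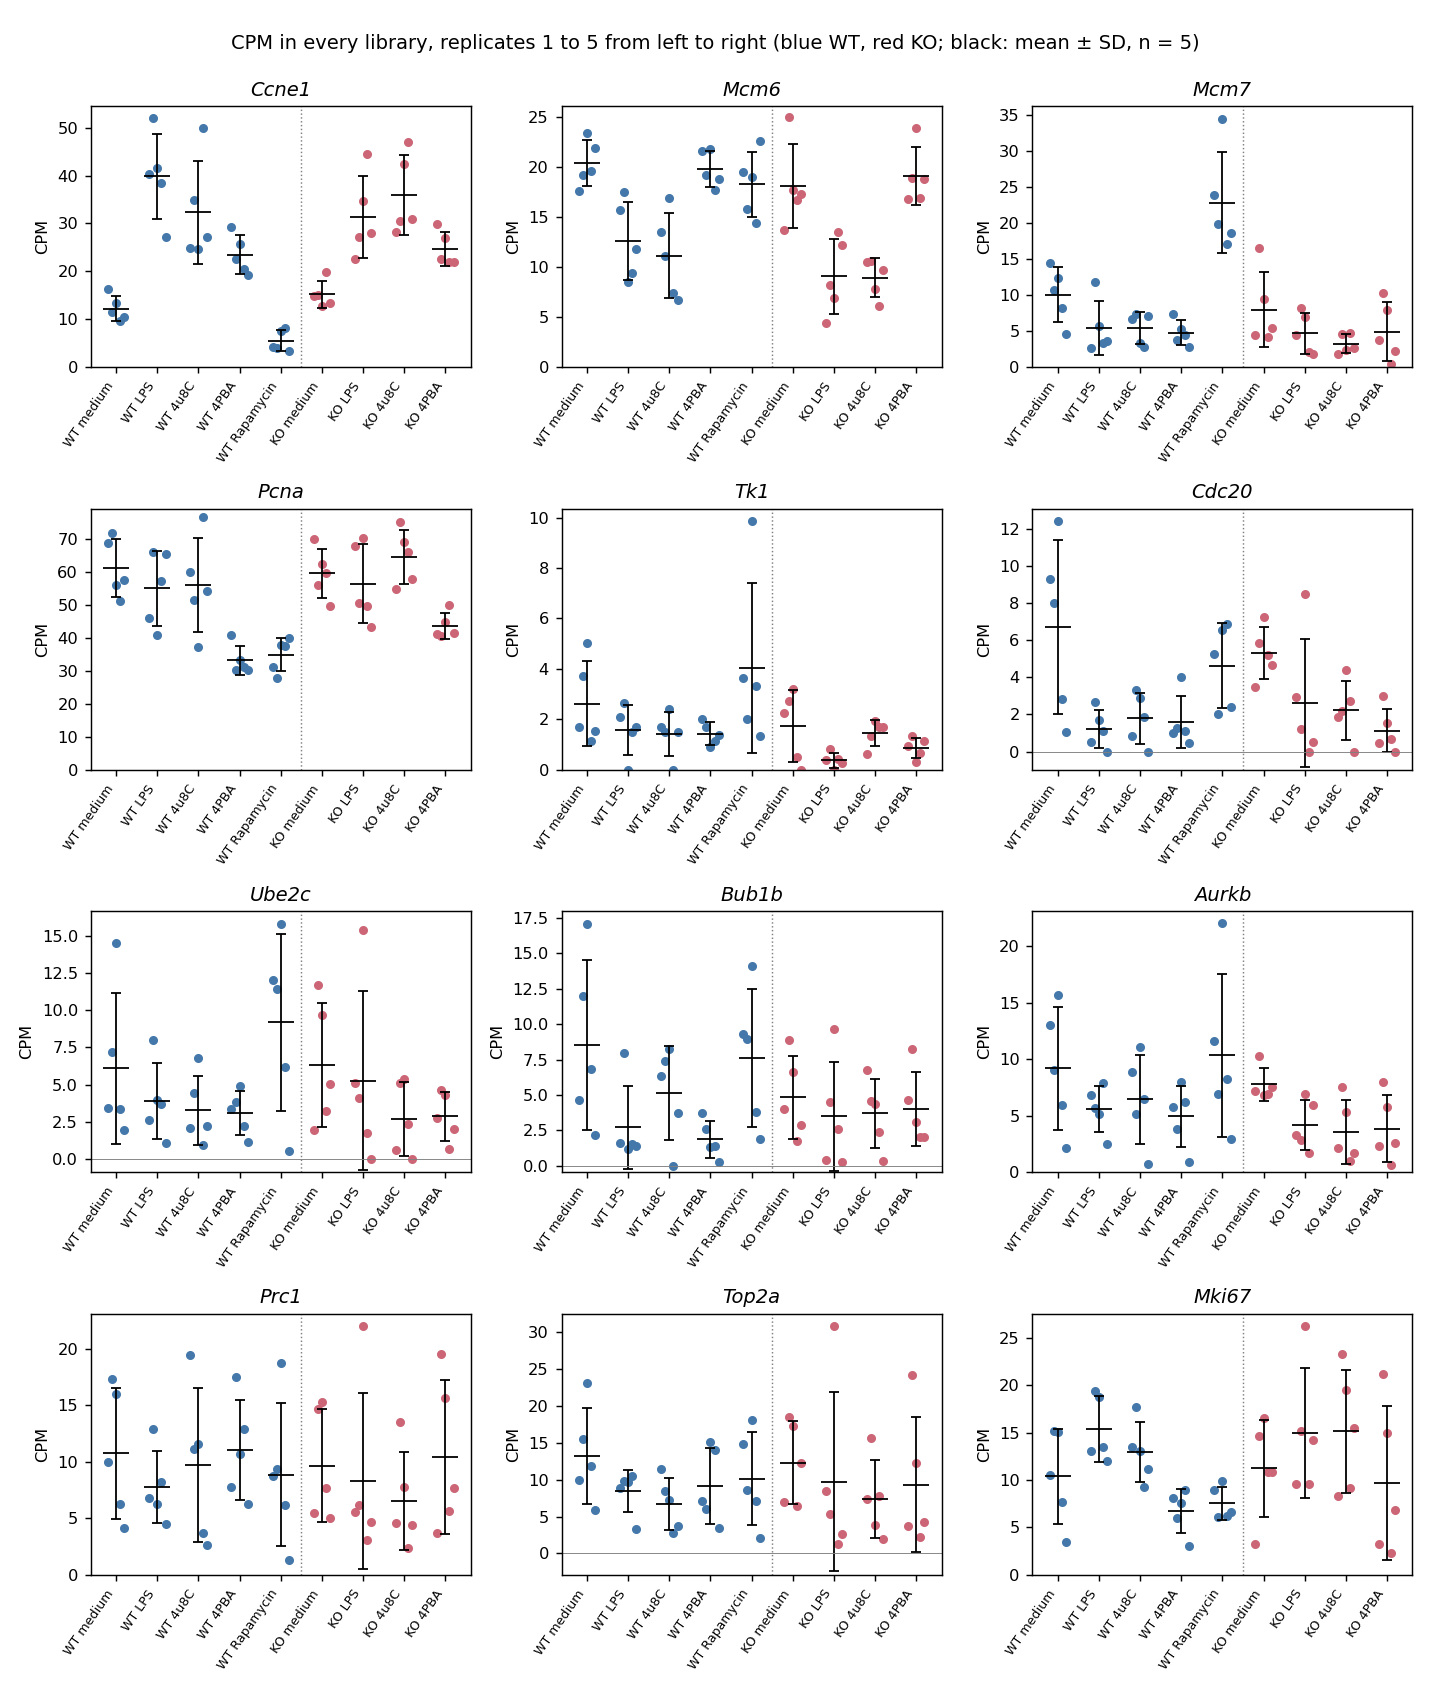
CPM of 12 members in each of the 45 libraries, in replicate order within a group, with the mean and SD (n = 5) in black, WT in blue and KO in red. Treated groups are clear of medium throughout for Ccne1 and in some groups for Mcm6 (LPS and 4µ8C) and Pcna (4PBA and rapamycin in WT cells). Mcm7 under rapamycin and Cdc20 in KO cells with 4PBA are also clear of medium. Mitotic genes such as Cdc20, Ube2c and Top2a spread over several-fold within a group. SD bars that pass below 0 belong to groups with 1 high library.

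The 8 genes of origin licensing and the helicase mostly shared a direction. All 8 fitted values were below 0 in WT cells under LPS, 4µ8C and 4PBA and in KO cells under 4µ8C, 7 of 8 under LPS in KO cells and 6 of 8 under 4PBA in KO cells. The tests called 3, 2 and 3 of the 8 in the 3 WT comparisons, where 40.1%, 40.1% and 43.7% of all genes were called. In the KO comparisons they called 1, 2 and 0 of the 8, beside 35.2%, 32.6% and 33.2% of all genes. Each share of the 8 was below that of all genes. In WT cells with LPS or 4PBA 1 more call would have put it above. With 8 genes these shares say nothing particular about the list. Medians of the 8 were -0.66, -0.80 and -0.86 (log2) in WT cells.

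Mcm6 carried the clearest fall. In WT medium it stood at 17.6, 19.2, 23.4, 19.6 and 21.9 CPM, and under LPS at 15.7, 17.5, 8.53, 9.36 and 11.8 CPM. The highest LPS library was just under the lowest medium library, and the fall of 0.69 on the log2 scale passed (SE 0.22, edgeR adjusted p = 0.0090). With 4µ8C the values were 13.5, 11.1, 16.9, 7.40 and 6.70 CPM, again with no overlap, and fell by 0.85 on the log2 scale (SE 0.22, edgeR adjusted p = 0.0019). With 4PBA Mcm6 stood at 21.6, 19.2, 21.8, 17.7 and 18.8 CPM, within the range of medium (log2 -0.04). In KO cells medium gave 13.7, 25.0, 17.7, 16.7 and 17.3 CPM, LPS 4.42, 8.22, 6.95, 13.5 and 12.2 CPM, and 4µ8C 10.5, 10.6, 7.80, 6.10 and 9.75 CPM. Neither treated group overlapped medium, and the falls were 0.98 for LPS (SE 0.22, edgeR adjusted p = 0.00043) and 0.99 for 4µ8C (SE 0.22, edgeR adjusted p = 0.00041) on the log2 scale. KO cells with 4PBA stood at 16.8, 18.9, 23.9, 16.9 and 18.8 CPM (log2 0.09). Set directly against LPS, 4PBA had more Mcm6 in both genotypes, by log2 0.65 in WT cells (SE 0.22, edgeR adjusted p = 0.023) and 1.07 in KO cells (SE 0.22, edgeR adjusted p = 0.00030), with no overlap in either. In WT cells all LPS libraries were outer and all 4PBA libraries inner. With that code as a term the WT value was 0.52 and missed the threshold (edgeR adjusted p = 0.22).

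Mcm7, another subunit of the helicase, was called in 2 comparisons. It stood at 14.4, 10.7, 12.4, 8.22 and 4.55 CPM in WT medium and at 23.9, 19.9, 34.5, 17.1 and 18.6 CPM under rapamycin. No rapamycin library overlapped medium, and Mcm7 was the 1 member called higher with rapamycin (log2 1.18, SE 0.40, edgeR adjusted p = 0.025). Other members also had fitted values above 0 there, among them Ccnb2 (log2 1.29), but were not called. With the library code as a term the rise of Mcm7 was 1.16 and missed the threshold (edgeR adjusted p = 0.061). Summed progenitor markers were higher in the same libraries, at 16.0 ± 3.59 CPM (SD, n = 5) with rapamycin against group means of 3.5 to 6.0 CPM elsewhere. Kit (11.2 against 2.86 CPM in medium) and Prtn3 (4.39 against 1.17 CPM) made up most of that difference, while Mpo, Elane, Ctsg and Myb were at 0 in all rapamycin libraries. Their part in the result was not tested. The neutrophil list was also highest there, at 865.3 ± 158 CPM, through Mmp8, with Elane, Ltf, Ngp, Retnlg and Camp at or near 0, and its part was not tested either.

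In WT cells LPS lowered Cdc6, which loads the helicase, from 3.29 ± 1.86 to 1.03 ± 0.757 CPM (SD, n = 5, log2 -1.60, SE 0.61, edgeR adjusted p = 0.031). That value rests on few reads, with 3, 3, 0, 5 and 2 counts in LPS replicates 1 to 5, mostly at or under the floor of 3 counts. LPS also lowered Mcm2, from 7.70 ± 4.31 to 3.53 ± 1.61 CPM (log2 -1.18, SE 0.47, edgeR adjusted p = 0.042). The groups overlapped for both genes. Cdt1, the partner of Cdc6, fell from 9.49 ± 3.38 CPM in WT medium to 5.85 ± 2.15 with 4µ8C (log2 -0.72, edgeR adjusted p = 0.035) and to 5.05 ± 2.23 with 4PBA (log2 -0.93, edgeR adjusted p = 0.0042). With 4PBA, Mcm4 fell from 16.6 ± 3.19 to 9.60 ± 2.06 CPM with no overlap (log2 -0.78, SE 0.26, edgeR adjusted p = 0.014), and Mcm5 fell with overlap (log2 -1.14, SE 0.45, edgeR adjusted p = 0.039). In KO cells Mcm7 fell with 4µ8C from 8.00 ± 5.17 to 3.26 ± 1.32 CPM (log2 -1.24, SE 0.49, edgeR adjusted p = 0.0497), with overlapping groups.

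Among the genes of the fork and of nucleotide supply, Pcna fell with 4PBA and with rapamycin and was not called with LPS or 4µ8C. WT medium gave 69.0, 71.8, 56.2, 51.3 and 57.6 CPM. With 4PBA Pcna stood at 40.8, 30.3, 33.4, 31.2 and 30.4 CPM, and with rapamycin at 31.2, 28.0, 37.8, 37.7 and 39.9 CPM. Both groups lay wholly below medium, by 0.88 (SE 0.15, edgeR adjusted p = 4.1e-06) and 0.80 (SE 0.15, edgeR adjusted p = 3.3e-05) on the log2 scale. Under LPS the WT libraries held 46.1, 66.1, 40.9, 57.3 and 65.5 CPM, which overlapped medium. In KO medium Pcna stood at 70.0, 56.2, 62.4, 59.9 and 49.6 CPM, and with 4PBA at 41.1, 40.7, 45, 49.9 and 41.6 CPM. The ranges met at 1 library, and the fall of 0.45 on the log2 scale passed (SE 0.15, edgeR adjusted p = 0.015). The difference between the 2 genotypes in this response was 0.43 (log2, KO minus WT, SE 0.21, unadjusted p = 0.045, edgeR adjusted p = 0.37) and did not pass.

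Rrm1, the large subunit of ribonucleotide reductase, fell with 4PBA in WT cells from 20.7 ± 8.79 to 11.3 ± 3.58 CPM (SD, n = 5, log2 -0.88, SE 0.33, edgeR adjusted p = 0.028). Tk1, the thymidine salvage kinase, was called lower with LPS in KO cells (log2 -2.26, SE 0.75, edgeR adjusted p = 0.015). It rests on few reads: KO medium held 2.23, 2.74, 3.22, 0.497 and 0 CPM, and KO LPS 0.368, 0.822, 0, 0.436 and 0.259 CPM. The groups overlapped. Tyms stood at 30.2 ± 7.28 CPM in WT medium and 19.3 ± 4.93 CPM with rapamycin, which missed the threshold (log2 -0.64, SE 0.25, edgeR adjusted p = 0.056). Rrm2 was called in none of the 7 comparisons.

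Apart from Ccne1, the genes of cyclin control gave 1 call against medium. E2f1 fell with 4PBA in WT cells from 39.5 ± 7.01 to 27.5 ± 4.88 CPM (SD, n = 5, log2 -0.53, SE 0.17, edgeR adjusted p = 0.0097), with overlapping groups. Its values for the other WT treatments were -0.38 with LPS (edgeR adjusted p = 0.070) and -0.35 with 4µ8C (edgeR adjusted p = 0.10). Cyclin A2 (Ccna2), the B cyclins (Ccnb1 and Ccnb2) and their kinase Cdk1 were called in no comparison with medium in this fit. With a block for the replicate number, given below, Ccnb2 was called in KO cells with 4µ8C.

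Of the 17 mitotic genes, Cdc20 was called in 4 of the 7 comparisons and Bub1b in 1. WT medium held 9.30, 8.00, 12.4, 2.83 and 1.08 CPM of Cdc20. The values were 0.524, 2.66, 1.71, 1.12 and 0 CPM with LPS, 0.842, 3.32, 2.90, 1.85 and 0 CPM with 4µ8C, and 1.01, 1.28, 4.01, 1.12 and 0.465 CPM with 4PBA. Replicates 1 to 3 of medium lay above all treated libraries, and replicates 4 and 5 lay among them. The log2 falls were 2.50 (SE 0.77, edgeR adjusted p = 0.0084), 1.90 (SE 0.74, edgeR adjusted p = 0.036) and 2.19 (SE 0.72, edgeR adjusted p = 0.012). In KO cells medium gave 3.48, 5.83, 7.24, 5.22 and 4.67 CPM and 4PBA 0.467, 2.98, 1.53, 0.674 and 0 CPM. The groups did not overlap, and Cdc20 fell by 2.22 on the log2 scale (SE 0.74, edgeR adjusted p = 0.019). KO LPS held 2.94, 1.23, 8.46, 0 and 0.518 CPM, with replicate 3 above every medium library, and was not called. Bub1b, a kinase-like protein of the spindle checkpoint, fell with 4PBA in WT cells. Its medium values were 4.65, 12, 17.1, 6.80 and 2.17 CPM and its 4PBA values 3.71, 2.56, 1.34, 1.40 and 0.232 CPM, which overlapped through replicate 5 of medium (log2 -2.25, SE 0.74, edgeR adjusted p = 0.013).

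The remaining 15 mitotic genes were called in none of the 7 comparisons with medium in the fit without a block for the replicate number. With that block, given below, some of them were called in KO cells. Ube2c ranged from 1.95 to 14.5 CPM in WT medium and from 1.12 to 7.97 CPM under LPS. Aurkb, the kinase of the chromosomal passenger complex, ranged from 2.17 to 15.7 CPM in WT medium and from 2.52 to 7.86 CPM under LPS. The 7 genes of the spindle, kinetochore and midzone had medians of 0.07, 0.04 and -0.08 (log2) under LPS, 4µ8C and 4PBA in WT cells. Prc1, which bundles midzone microtubules, stood at 10.7 ± 5.84 CPM in WT medium and 7.73 ± 3.18 CPM with LPS. Top2a, the topoisomerase that untangles sister chromatids, ranged from 5.85 to 23.1 CPM in WT medium. Mki67 held 10.5, 15.2, 15.1, 7.65 and 3.47 CPM in WT medium and 13.1, 19.4, 18.8, 13.5 and 12 CPM with LPS, which overlapped and was not called.

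Within KO cells, replicates with the same number deviated together in every pair of the treated and medium groups, and with the replicate number as a block the counts rose. LPS then called 8 members against 39.2% of all genes (18.4% higher, 20.7% lower): Mcm3, Mcm5, Mcm6, Rrm1, Tk1 and Aurkb lower, and Ccne1 and Tpx2, a spindle assembly factor, higher. 4µ8C called 8 against 36.4% (17.6% and 18.8%): Mcm6, Mcm7, Ccnb2, Aurkb, Cdc20 and Ube2c lower, and Ccne1 and Tpx2 higher. 4PBA called 8 against 37.6% (18.9% and 18.7%): Mcm3, Mcm5, Pcna, E2f1, Aurkb, Bub1 and Cdc20 lower, and Ccne1 higher. The members' shares were still below those of all genes. In WT cells with 4PBA, where the numbers also paired, the block gave 13 calls, 1 higher and 12 lower, against 47.8% of all genes (24.2% and 23.7%). With the outer or inner library code as a term, 4PBA called 4 members in WT cells, namely Ccne1 higher and Cdt1, Pcna and Bub1b lower. These 4 were also among the 9 called without that term.

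Several members were called in both genotypes. LPS called Ccne1 and Mcm6 in both, which are 40% of the members called in WT and 66.7% of those called in KO cells, beside 65.7% and 74.8% over all genes. 4µ8C called the same pair, 50% of the WT and 66.7% of the KO calls, beside 61.7% and 75.7%. 4PBA called Ccne1, Cdc20 and Pcna in both, 33.3% of the WT and 100% of the KO calls, beside 58.8% and 77.4%. With 3 to 9 members called, these shares say nothing particular about the members. The tests of a difference between genotypes in the response to LPS, 4µ8C or 4PBA called 0 members, against 0.00972%, 1.79% and 4.73% of all genes. DESeq2 also called 0. It gave no adjusted p for some members with LPS and 4µ8C, among them Cdc6, Tk1, Ccnb2 and Kif11, which could not be called. With edgeR 1, 0 and 1 members had an unadjusted p under 0.05.

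No member passed the threshold between genotypes. In medium all WT libraries were outer and all KO libraries inner, so genotype and library code cannot be told apart within those libraries. KO against WT called 0 of 36 members in medium, where 8.92% of all genes were called, and 0 under LPS (6.06%), 4µ8C (0.943%) and 4PBA (0.496%). DESeq2 also called 0 in all 4. Under 4µ8C it gave no adjusted p for many members, among them Cdc6, Cdt1, Mcm2, Ccnb1 and Cdc20, which could not be called. With edgeR 3, 1, 1 and 1 members had an unadjusted p under 0.05. In medium these 3 were lower in KO cells: E2f1 at 29.5 ± 6.45 against 39.5 ± 7.01 CPM (log2 -0.43, edgeR adjusted p = 0.10), Cdk1 at 7.26 ± 3.33 against 12.5 ± 5.68 CPM (log2 -0.81, edgeR adjusted p = 0.17), and Cdc6 at 1.51 ± 0.495 against 3.29 ± 1.86 CPM (log2 -1.09, edgeR adjusted p = 0.22). In medium 26 of the 36 fitted values lay below 0, with a median of -0.18 against -0.03 over all genes. Under LPS the 1 gene was Tk1 (log2 -2.13, edgeR adjusted p = 0.11), at few reads in both groups. The medium count became 1 without KO medium replicate 5, which was E2f1 (log2 -0.53, edgeR adjusted p = 0.049). Without the WT libraries of number 5, which held the lowest member levels of their groups, it became 2, Cdk1 (log2 -1.0, edgeR adjusted p = 0.030) and E2f1 (log2 -0.51, edgeR adjusted p = 0.031). That removal takes away the lowest WT library and so raises the WT level by construction.

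The inhibitors were also set against LPS. 4µ8C called 0 members in either genotype, by edgeR and by DESeq2, where 0.204% of all genes were called in WT and 0.0292% in KO cells. In WT cells DESeq2 gave no adjusted p for some members, among them Cdc6, Tk1 and Ccnb2, which it could not call. Unadjusted p was under 0.05 for 0 members in WT and for 1 in KO cells, Tk1. In WT cells 4PBA called 4 members, 1 higher and 3 lower, against 27% of all genes (15% and 12%). Mki67 was lower, with 8.10, 5.98, 7.57, 8.99 and 3.02 CPM against the LPS values given above, without overlap (log2 -1.20, SE 0.45, edgeR adjusted p = 0.041). Pcna was lower by 0.75 on the log2 scale (SE 0.15, edgeR adjusted p = 0.00021), Ccne1 by 0.76 (SE 0.20, edgeR adjusted p = 0.0032), and Mcm6 was higher as given above. The count was 2 without WT LPS replicate 3 or 4, and with the library code as a term only Pcna passed. In KO cells 4PBA called 2 members against 24.4% of all genes (12.9% higher, 11.5% lower), Mcm6 higher and Mcm4 lower (9.36 ± 2.97 against 15.8 ± 1.39 CPM, log2 -0.74, SE 0.27, edgeR adjusted p = 0.037). With the replicate block the KO count was 4 against 29.1% (15% higher, 14.1% lower), with Mcm2 higher and Mki67 lower in addition. It was 1 without KO LPS replicate 1, 2 or 3 or KO 4PBA replicate 1 or 4.

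Rapamycin against LPS gave the widest split of the members, 8 higher and 5 lower, where 56.3% of all genes were called (29.6% higher, 26.7% lower). The 8 higher in rapamycin included Mcm7 (log2 2.06, SE 0.45, edgeR adjusted p = 0.00014) and Cdt1 (log2 0.71, edgeR adjusted p = 0.020), neither with overlapping groups. The others were Cdc20 (log2 2.01), Ccnb2 (log2 1.80), Mcm2 (log2 1.51), Birc5 or survivin of the passenger complex (log2 1.42), Tk1 (log2 1.26) and Mcm6 (log2 0.54), all with overlap. Ccne1 was 7.12-fold lower (log2 -2.83, SE 0.23, edgeR adjusted p = 3.1e-15), and its libraries lay between 3.45 and 8.21 CPM against 27.1 to 52.0 CPM. Tyms (log2 -1.02, edgeR adjusted p = 0.00065), Pcna (log2 -0.67, edgeR adjusted p = 0.00019) and Mki67 (log2 -1.01, edgeR adjusted p = 0.044) were lower without overlap, and Tpx2 lower with overlap (log2 -1.16). The median of the 36 was 0.49 against 0.08 over all genes. Without rapamycin replicate 1 or replicate 3 the count was 8, and with the library code as a term Cdt1, Mcm6, Tpx2 and Mki67 were no longer called.

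Libraries of 1 group spread widely in these genes. Summed over the 36 members, WT medium held 429.2 ± 132.2 CPM (SD, n = 5) with a range of 264.2 to 585.1 CPM. WT LPS held 373.9 ± 78.3, WT 4µ8C 354.9 ± 67.8, WT 4PBA 295.0 ± 55.6 and WT rapamycin 376.9 ± 133.8 CPM. The KO groups held 380.5 ± 98.6 CPM in medium, 348.1 ± 120.1 with LPS, 336.6 ± 65.3 with 4µ8C and 300.5 ± 82.9 with 4PBA. The sum is a description and carries no test, and single libraries ran from 202 to 601 CPM.

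**Figure D3:**
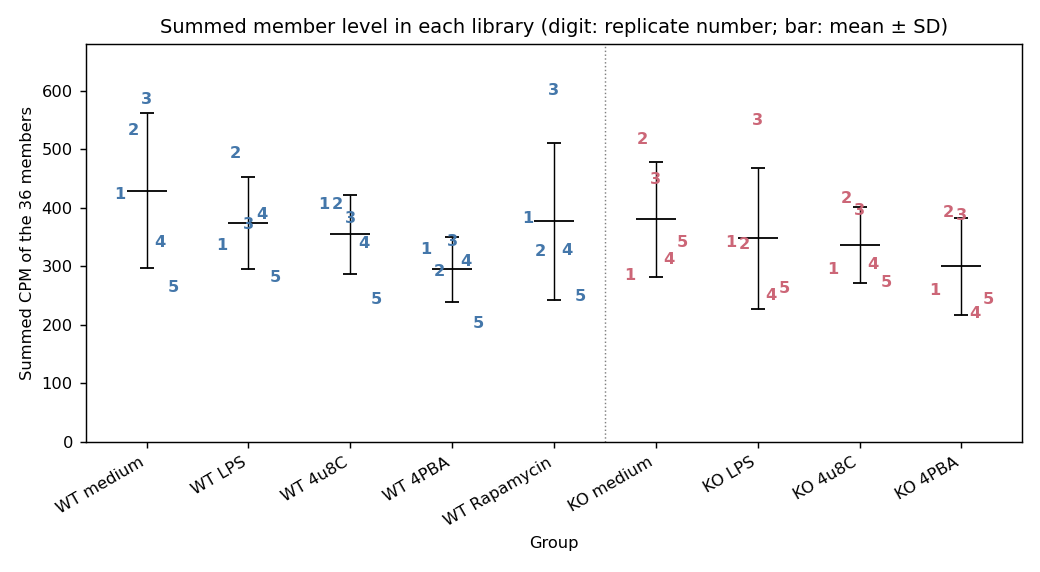
Sum of the CPM of the 36 members in each library by group, with the mean and SD (n = 5). The ranges of the groups overlap, from 264.2 to 585.1 CPM in WT medium alone, and the 4PBA group has the lowest mean in each genotype.

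The spread was shared across members, measured on the log2(CPM + 0.5) scale. Replicate 5 had the lowest mean deviation from its group in all 5 WT groups, at -0.95 (log2) in medium, -0.56 with LPS, -0.73 with 4µ8C, -0.70 with 4PBA and -1.02 with rapamycin. In those libraries 35, 32, 30, 30 and 32 of the 36 members lay below their group mean. At the other end, replicate 3 under rapamycin had all 36 members above the group mean, by 0.92 on average, and KO LPS replicate 3 had 31 of 36 above, by 1.1. WT medium replicate 3 had 32 above, by 0.78, and KO medium replicate 2 had 34 above, by 0.66. Members differed in how much they took part. The mean within-group SD (log2) was 0.23 for Pcna, 0.26 for E2f1, 0.33 for Ccne1 and for Mcm6 and 0.38 for Cdt1. It was 1.14 for Ube2c, 1.18 for the kinase Aurka, 1.25 for Rrm2, 1.32 for Ccna2 and 1.35 for Ccnb1. Of the members called most often, Ccne1 and Mcm6 had small spreads and Cdc20 did not.

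**Figure D4:**
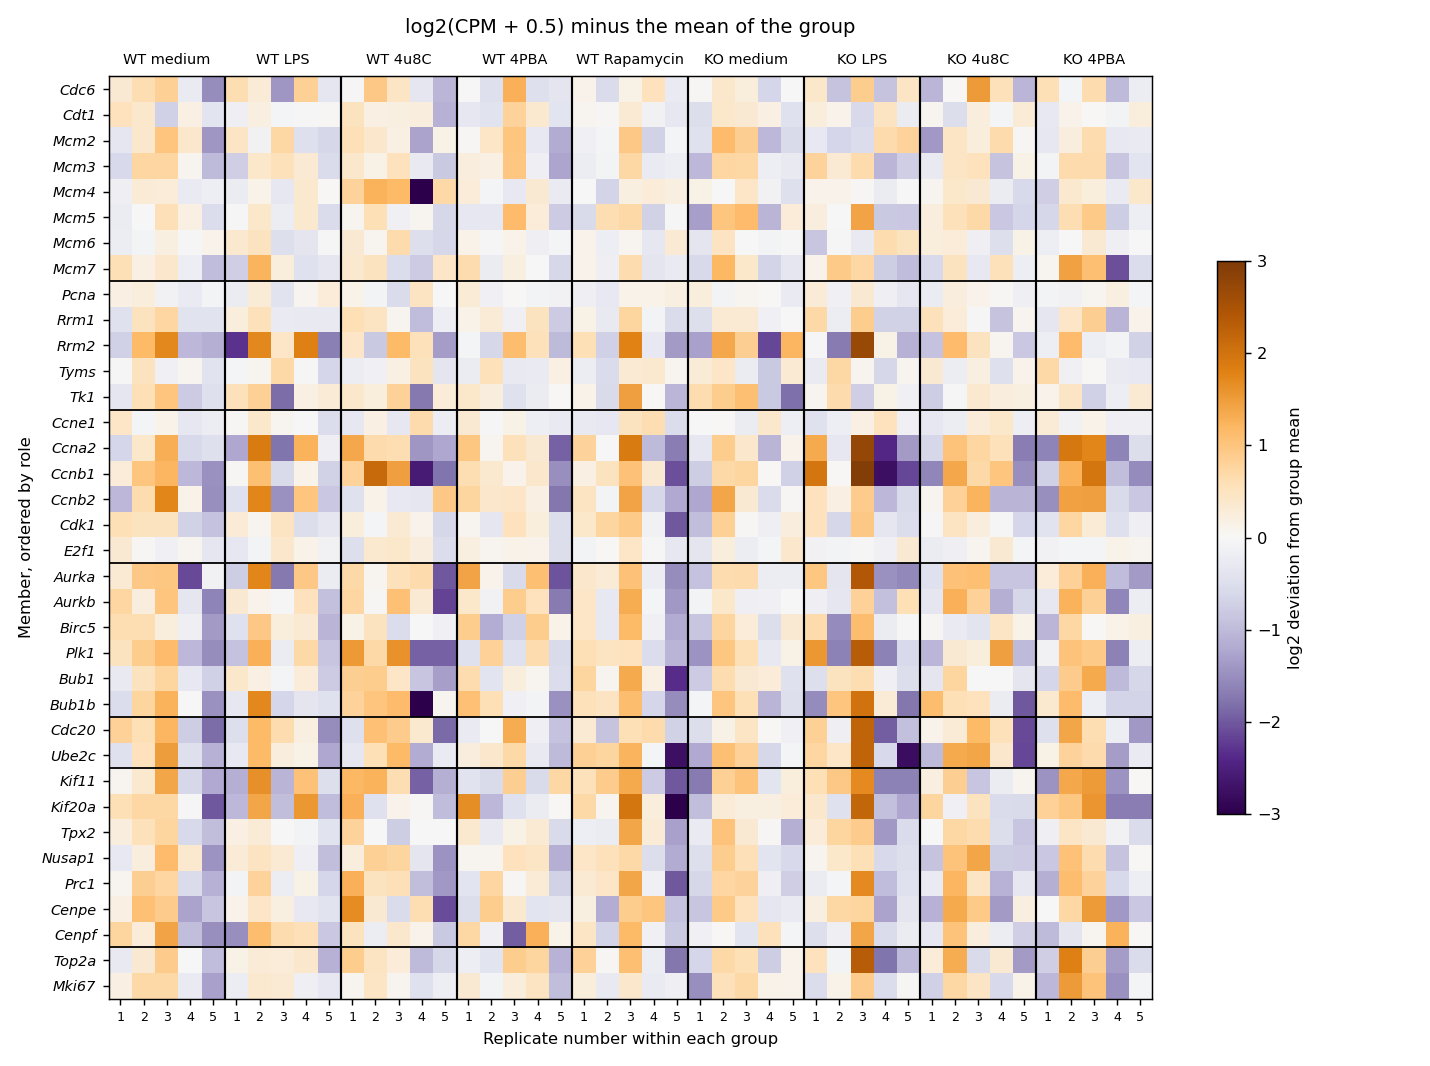
Deviation on the log2(CPM + 0.5) scale of each member (rows) from the mean of its group in each of the 45 libraries (columns), with colours held at 3 in either direction. WT replicate 5 is a low column in every WT group, and rapamycin replicate 3 and KO LPS replicate 3 are high columns, whereas Pcna, E2f1, Ccne1 and Mcm6 stay pale throughout.

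Other genes of the same pathways were counted from wider lists, to be read beside the shares of all tested genes that were called: 18.8% higher and 21.3% lower with LPS in WT cells, 20% and 20% with 4µ8C, 22.4% and 21.3% with 4PBA, and 9.68% and 13.5% with rapamycin. Of 48 further replication genes, LPS in WT cells called 4 higher and 12 lower, 4PBA 2 and 8, and rapamycin 1 and 4, which together are 33.3%, 20.8% and 10.4% of the list and below the 40.1%, 43.7% and 23.2% of all genes. Chaf1a, which assembles chromatin behind the fork (log2 -2.01), and Pola1, the catalytic subunit of polymerase alpha (log2 -1.70), were among those lower with LPS, and Timeless, a fork protection factor, among those higher (log2 1.37). Of 46 further mitotic genes LPS called 6 higher and 8 lower, 4PBA 6 and 10, and rapamycin 3 and 3, or 30.4%, 34.8% and 13% of the list, also below the shares of all genes. Cdc25b, the phosphatase that activates Cdk1, was lower with LPS (log2 -2.12), while Fzr1 (Cdh1), which turns the anaphase-promoting complex toward cyclin destruction, was higher with LPS (log2 1.06) and with 4PBA (log2 2.15).

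Of 14 genes that set the entry into the cycle LPS called 2 higher and 5 lower in WT cells, 4µ8C 2 and 5, and 4PBA 4 and 5, or 50%, 50% and 64.3% of the list beside 40.1%, 40.1% and 43.7% of all genes. Cyclin D2 (Ccnd2) was higher with LPS (log2 2.04) and the pocket protein Rbl1 likewise (log2 1.60), while E2f2 (log2 -2.73), Myc (log2 -2.54) and Cdk4 (log2 -0.86) were lower. Rapamycin called 0 higher and 3 lower (21.4% beside 23.2%), and these were the 3 D cyclins Ccnd1 (log2 -2.28), Ccnd2 (log2 -1.55) and Ccnd3 (log2 -0.61). Of 16 Cdk inhibitors and other growth-restraining genes LPS called 7 higher and 2 lower in WT cells, or 56.2% beside 40.1% of all genes. Those higher included Cdkn1a or p21 (log2 1.06), Gadd45b (log2 1.77) and Ccng2 (log2 1.69). Group means went the other way for the Cdk inhibitor Cdkn2b (6.72 CPM in medium, 2.66 with LPS) and for Ccng1 (149.6 and 98.6 CPM). Rapamycin called 1 higher and 5 lower, or 37.5% beside 23.2%, with Cdkn1a at -1.36 and Tob1, an antiproliferative factor, at 1.44 (log2). In KO cells LPS called 7 of the 16 higher and 3 lower, or 62.5% beside 35.2% of all genes, with Cdkn1a at 1.24, and Ccnd2 rose there by 1.35 (log2).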

How the data were processed

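Total RNA (1 µg per the labels) from sorted cells was sequenced. The expected counts and TPM per gene were made by the authors with RSEM after bcl2fastq, per the submitters' processing notes, which give no versions. For the aligner and genome build, the sources used here name none. Expected counts were rounded (9.09% were not whole) and tested with edgeR 4.0.16 in R 4.3.3: filterByExpr, TMM factors (0.716 to 1.29), its quasi-likelihood test in the robust form on 1 model of 9 means for 45 libraries (36 residual degrees of freedom), and Benjamini-Hochberg adjustment over the 10287 genes tested in each of 19 comparisons. The test was checked on simulated counts. These were drawn independently for each library, without deviations shared by replicate number, so the check does not cover such deviations. CPM uses the TMM factors, and a count of 0 allows up to 3 counts (counting error only). TPM as deposited was used for levels between genes. Alternatives were DESeq2 1.42.0 and its size factors, other filters, only the groups compared, the library code, left-out libraries and a replicate block. Replicate numbers in the labels were taken as pairs where deviations over 2000 genes correlated above 0.1 in every pair, which held for 4PBA in WT cells and for all treatments in KO cells. The labels give no source animal for a number. P-values measure the spread between these libraries. The highest correlation of log2 counts between any pair of libraries was 0.9842.

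The members, the wider gene lists and the marker lists were chosen with earlier results of these data known. Every member called in the fit without a replicate block is named, up to 12 per comparison with the largest change. Members called with that block in WT cells are counted but not named. Values in every library are plotted or printed for the member with the highest TPM of each role, for Mki67 and for the largest called changes. Pcna, Tyms, Ccnb1 and Ccnb2 have named pseudogenes in RefSeq, of which only that of Tyms has a row in the table, so the count of Tyms is uncertain, and the kit is not stated to keep strand.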

Additional observations from a re-analysis of the deposited data

Results flagged for a closer look

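In 7 of 117 groups of 5 libraries, covering 12 members in 9 groups and summed levels, 1 library stood apart from the other 4 by more than Dixon's critical value of 0.71 for the gap over the range. Chance gives about 1 in 20 such groups. KO LPS replicate 3 was the highest of its group for Top2a, at 30.8 CPM, and for Prc1, at 22 CPM. Rapamycin replicate 3 was highest for Tk1 (9.85 CPM), KO medium replicate 2 for Aurkb (10.3 CPM), WT LPS replicate 2 for Bub1b (7.97 CPM) and WT 4PBA replicate 3 for Cdc20 (4.01 CPM). WT LPS replicate 5 was the lowest of its group for Top2a (3.36 CPM). Each of these libraries apart from WT 4PBA replicate 3 also had the highest or lowest mean deviation of its group over the 36 members.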

How the results depend on the processing

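Of 920 recomputed values of called members, 781 kept their direction and their side of the threshold. Another 139 kept the direction and missed the threshold, and 0 reversed. Only members called in the main fit entered, and 490 of the values came from leaving out 1 library. Those fits shared most libraries with the main fit, so a reversal was unlikely beforehand. DESeq2 gives some genes no adjusted p, and any such value with the same direction was counted among the 781. Counts of called members moved by over 1.5 times as follows, and the cause was not tested. With a mean of at least 5 CPM WT LPS gave 3 (23 members tested), with no filter WT 4µ8C gave 2, and with only the groups compared KO 4µ8C gave 7. The library code as a term gave 4 for WT 4PBA against medium and 1 against LPS. Without the KO libraries of number 4, KO 4PBA against LPS gave 1. Without the WT libraries of number 5, a choice made after seeing the data, KO against WT in medium gave 2 and WT 4PBA against LPS gave 2. Where the replicate numbers paired, the replicate block gave 8 for each of KO LPS, KO 4µ8C and KO 4PBA and 4 for KO 4PBA against LPS. Where they only share a number, the block gave 9 for WT LPS, 8 for WT 4µ8C and 5 for rapamycin. It changed no other count by over 1.5 times. With single replicates left out, counts ranged from 0 to 1 for KO against WT in medium, 3 to 7 for WT LPS, 2 to 5 for WT 4µ8C, 6 to 11 for WT 4PBA, 3 to 4 for rapamycin, 2 to 8 for KO LPS, 2 to 4 for KO 4µ8C and KO 4PBA, 2 to 4 for WT 4PBA against LPS, 8 to 14 for rapamycin against LPS, and 1 to 3 for KO 4PBA against LPS. The other comparisons gave 0 throughout.

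The floor of 3 counts was worth 2.77 CPM in WT 4µ8C replicate 4 and at most 1.71 CPM in the other libraries. Levels of Cdc6, Tk1 and Cdc20 under it, which several treated libraries hold, could not be told from 0.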

Other observations

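Hdc, which makes histamine, was the largest part of the mast cell or basophil list and moved with the treatments. Its group means were 14.4 CPM in WT medium, 196 with LPS, 209 with 4µ8C, 253 with 4PBA and 1.64 with rapamycin, and 19.0, 177, 141 and 179 CPM in the 4 KO groups.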
